A study of Mus musculus with 4 samples.

Results

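The core spliceosome and SR protein genes described here are the genes whose symbols start with Snrp, Sf3a, Sf3b or Srsf. They were found on the array by taking every probe set whose only gene symbol in the platform annotation has one of these beginnings, leaving out pseudogene symbols marked -ps. This gave 41 probe sets of 29 genes, of 34760 probe sets in the deposited table, where 21640 carry 1 symbol and stand for 19937 genes. The Snrp symbols account for 17 probe sets of 10 genes, Sf3a and Sf3b for 10 probe sets of 9 genes, and Srsf for 14 probe sets of 10 genes. RefSeq lists 32 protein-coding mouse genes with these beginnings, and the 3 without a member probe set are Snrpf, Snrpn and Srsf7. Snrpf and Snrpn lie on probe sets that also carry another symbol, and none of the 3 was analysed here.

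The samples were 4 preparations of pro-B cells, an early stage of B-lymphocyte development, sorted from the marrow of C57BL/6 mice of wild-type genotype as cells carrying both B220, a B-lineage form of CD45, and the stem cell factor receptor c-Kit. Sorting used flow cytometry or magnetic beads with the corresponding antibodies, and the labels do not say which was used for which sample. All 4 belong to 1 group, with no treatment, transgene or second genotype among them, so no comparison between conditions was possible and the values are described over replicates 1 to 4. Whether each replicate is a mouse of its own is not stated in the labels, so their spread may be technical in part, and the number of arrays limits the precision.

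Splicing removes introns from a newly made transcript and joins its exons. The U1 and U2 small nuclear ribonucleoproteins (snRNPs), each a small nuclear RNA in a ring of Sm proteins with a few proteins of its own, recognise the 5′ splice site and the branch point, and the SF3A and SF3B complexes hold U2 at the branch point. SR proteins, which have RNA recognition motifs and a tail rich in arginine and serine, bind exons, help to recruit these particles and influence which exons are kept, a choice that shapes several lymphocyte transcripts such as that of CD45.

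Expression of each probe set was measured on a Mouse Gene 1.0 ST array as a log2 intensity, a scale on which 1 unit is a 2-fold difference. A probe set was called above background when it passed, on all 4 arrays, a line set by 1246 probe sets of odorant, vomeronasal and taste receptors, genes taken as silent here. The line was their 95th percentile and lay between 6.53 and 6.62 on the 4 arrays. The arrays correlated with each other at r between 0.986 and 0.989 over all probe sets, and their medians lay between 7.31 and 7.35. The genes of the sorted markers were well over the line, with c-Kit (Kit) at 10.72 ± 0.18 and CD45 (Ptprc) at 11.65 ± 0.25. So were the B-lineage genes Pax5 at 10.80 ± 0.55, Ebf1 at 11.18 ± 0.60 and Cd79a at 12.21 ± 0.39 (SD, n = 4 arrays). The Ptprc value does not separate B220 from other forms of CD45, so it is no check of the B220 sort. Of an early B-cell list, 16 of 17 genes were above the line on all 4 arrays. The same held for 14 of 14 granulocyte and monocyte genes and 9 of 9 erythroid genes, where 60.0% of all probe sets passed. These markers thus do not show a population free of other marrow cells. Replicates 1 and 3 stood apart from the rest in different ways. Xist, the RNA that coats the inactive X chromosome, read 13.17, 13.04, 5.48 and 13.05 on replicates 1 to 4, so that replicate 3 alone was below the line and was not RNA of the same animals as the rest. On replicate 1 the early B-cell genes were higher and the erythroid genes lower than on the other arrays, as set out beside the Snrp results.

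Nearly the whole set of genes was expressed above background. Of the 41 member probe sets, 39 (95.1%) passed the line on all 4 arrays, against 60.0% of all probe sets on the array. By gene, 28 of the 29 had at least 1 such probe set. Unlike the members, all probe sets include those with no symbol or several and the silent receptor probe sets, so the shares are not of like kinds. A one-sided limma test against the line, adjusted over all probe sets by Benjamini-Hochberg, called the same number, 39, against 60.2% of all probe sets. Leaving out replicate 1 or replicate 3 also left 39. The gene below the line was Srsf12, an SR protein of narrow expression, which read 6.50, 6.37, 6.21 and 6.29 on replicates 1 to 4 and was under the line on every array (limma adjusted p = 1). With the 90th percentile as the line it passed too, giving 29 of 29 genes and 40 probe sets, against 67.9% of all probe sets. The fifth Snrpd2 probe set was the other member below it, at 3.80, 4.48, 4.07 and 4.82, while the remaining 4 probe sets of this Sm protein gene were above the line on every array. With the 99th percentile as the line, the dimmest probe set of Srsf3 and that of Sf3b4 also dropped out, leaving 37 probe sets but still 28 genes, against 48.2% of all probe sets.

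**Figure D1:**
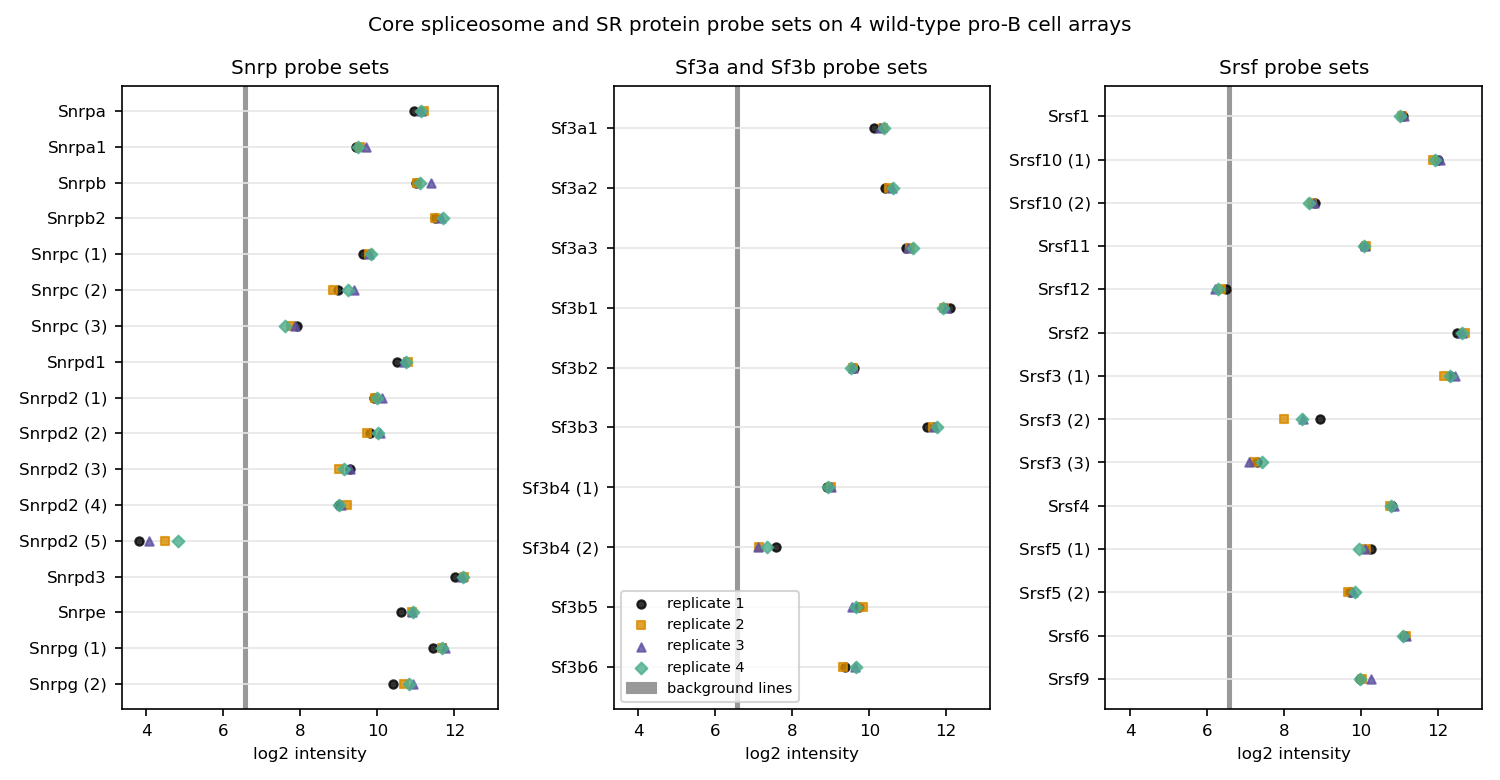
Log2 intensity (horizontal axis) of each of the 41 member probe sets (rows, numbered by falling mean where a gene has several) on the 4 arrays, with the symbol giving the replicate and the grey bar the range of the background lines. Srsf12 and the fifth Snrpd2 probe set lie below the bar on all 4 arrays, and for most of the others the 4 symbols overlap or nearly so.

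The arrays differed little in these genes. The SD over the 4 arrays had a median of 0.110 log2 units over the 39 member probe sets above background, against 0.129 over all 20869 probe sets above background, and 26 of the 39 lay under that all-gene median. With 1 probe set a gene, the median was 0.106 and 23 of 28 genes lay under it. By family the medians were 0.131 for Snrp, 0.0975 for Sf3a and Sf3b, and 0.0803 for Srsf, so the Snrp probe sets were no steadier than the array as a whole while those of the other families were steadier. These medians are descriptions and were not tested against other genes, and the genes compared were not matched for intensity. With 1 probe set a gene, the median SD was lower in 14 cell cycle genes (0.0849) and 7 housekeeping genes (0.0603). It was higher in the other marker lists described below, such as 16 early B-cell genes (0.446).

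**Figure D2:**
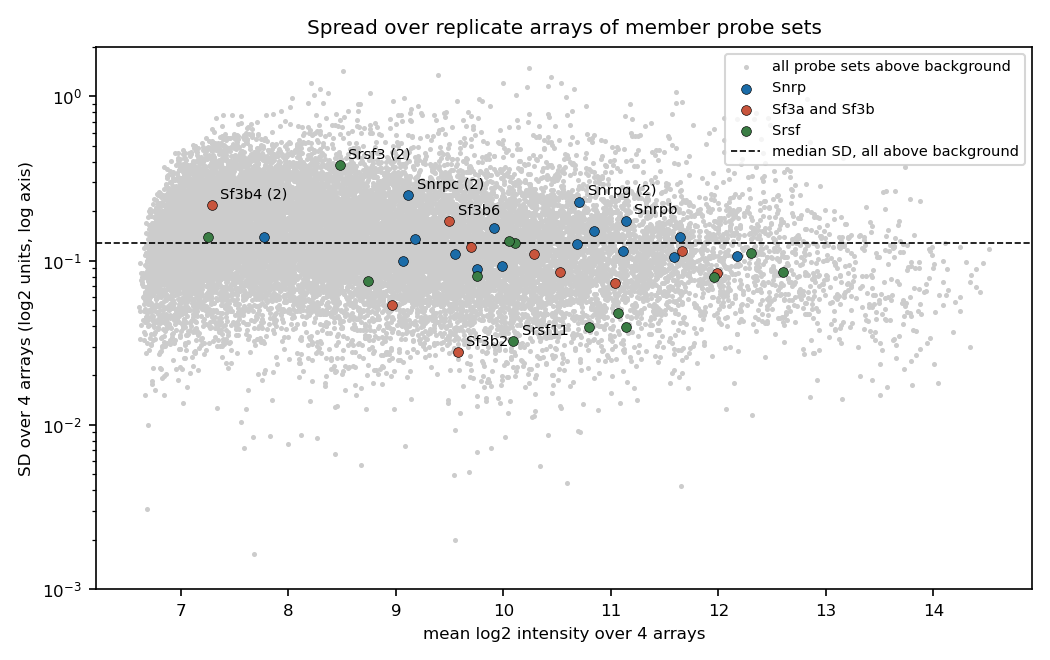
SD over the 4 arrays in log2 units (vertical axis, log scale) against the mean log2 intensity (horizontal axis) for all probe sets above background (grey) and for the 39 member probe sets above background (coloured by family), with the all-gene median SD of 0.129 as a dashed line. Sf3b2 and Srsf11 lie lowest among the members and the second Srsf3 probe set highest, at an SD of 0.383.

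The Snrp genes were lower on replicate 1. A shift is the log2 level on 1 array less the average of the other 3, and the 4 shifts of a probe set sum to 0, so they are not independent of each other. On replicate 1 the median shift of the 16 Snrp probe sets above background was -0.17, and 14 of the 16 were lower there than the mean of the other arrays. Over all 39 members the median was -0.09 with 25 lower, and over all probe sets above background it was 0.02 with 46.5% lower. With 1 probe set a gene, all 10 Snrp genes were lower on replicate 1. The size depended on replicate 3, since without that array the Snrp median was -0.09, with 14 of 16 still lower. This difference concerns 1 array of 1 group, so no test between conditions applies to it, and it was picked out after the values were seen.

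With replicate 1 among the arrays, replicate 3 stood at the other side for the Snrp genes. There the median shift of the Snrp probe sets was 0.13 and 15 of 16 were higher than the mean of the other arrays, against 31 of the 39 members and 50.0% of all probe sets above background. With 1 probe set a gene, all 10 Snrp genes were higher on replicate 3. Without replicate 1, the count of Snrp probe sets higher on replicate 3 was 10 of 16, the same as on replicate 4 with all arrays. The lean on replicate 3 thus depended on replicate 1. The remaining arrays showed no such lean, with 9 of 16 Snrp probe sets and 22 of 39 members lower on replicate 2 against 50.7% of all probe sets, and 10 of 16 Snrp probe sets and 20 of 39 members higher on replicate 4 against 47.0%.

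**Figure D3:**
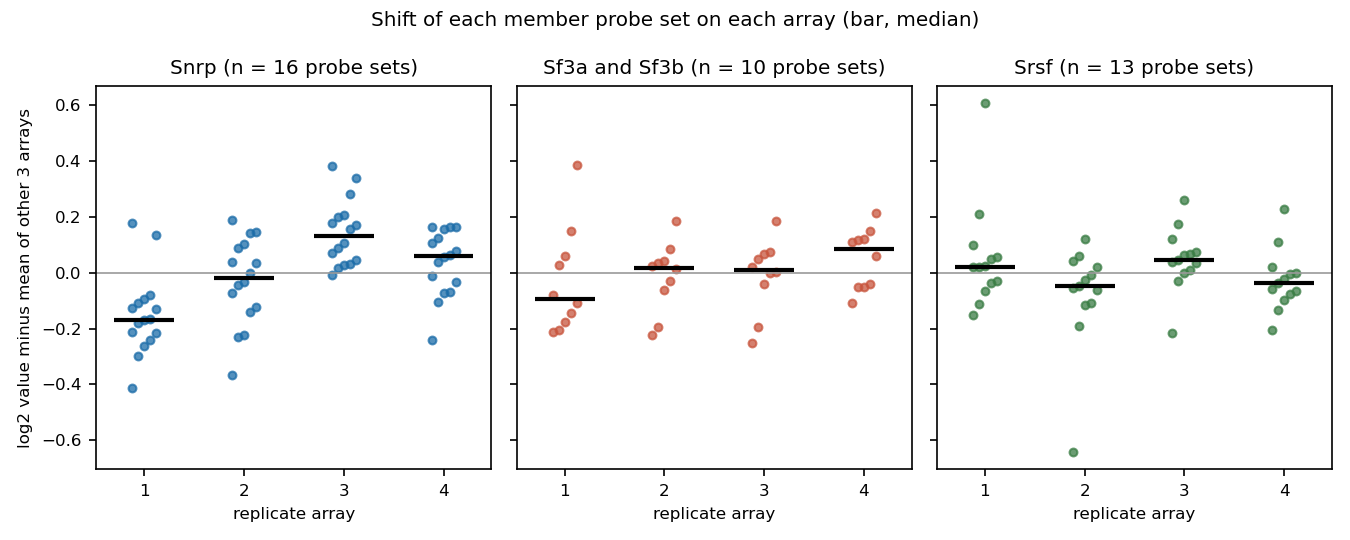
Shift of each member probe set above background (points; log2 level less the average of the other 3 arrays) on replicates 1 to 4, by family, with the family median as a bar. The Snrp points lie mostly below 0 on replicate 1 (14 of 16) and above 0 on replicate 3 (15 of 16), while 5 of 13 Srsf points lie below 0 on replicate 1 and 10 of 13 above 0 on replicate 3.

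Among the Snrp genes, those of the Sm ring (Snrpb, Snrpd1, Snrpd2, Snrpd3, Snrpe and Snrpg), which is shared by the snRNPs, had the larger median shifts. Their 10 probe sets above background had a median shift of -0.19 on replicate 1, with 9 of the 10 lower, and of 0.16 on replicate 3, with 9 of the 10 higher. Snrpe, which encodes the E protein of the ring, read 10.61 on replicate 1 and 10.91, 10.90 and 10.93 on replicates 2 to 4 (SD 0.15). Replicate 1 lay 0.30 below the mean of the others, which were nearly equal. Its gap was large enough to pass Dixon's outlier criterion for 4 values, with a ratio of 0.914. Snrpd3, the gene of the D3 protein, had the same form, at 12.02 on replicate 1 and 12.25, 12.21 and 12.22 on the others, but its ratio of 0.825 was just under the critical value. Snrpd1, the gene of the D1 protein, read 10.50 on replicate 1 and 10.79, 10.69 and 10.74 on replicates 2 to 4, again lowest on replicate 1.

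Snrpg, the gene of the G protein, has 2 probe sets, and both were lowest on replicate 1 and highest on replicate 3. The first read 11.44, 11.67, 11.77 and 11.68 on replicates 1 to 4, and the second 10.40, 10.68, 10.92 and 10.83. The shift of the second on replicate 1, -0.41, was the lowest among the members above background. Snrpb, which encodes the B proteins of the ring, differed in form. It read 11.02, 11.03, 11.39 and 11.11, so that replicates 1 and 2 were nearly equal and replicate 3 was high, with a shift of 0.34.

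The 5 probe sets of Snrpd2, the gene of the D2 protein, did not move alike. Its brightest probe set read 9.92, 9.93, 10.12 and 9.98 on replicates 1 to 4, highest on replicate 3, and the second read 9.81, 9.74, 10.06 and 10.02, higher on replicates 3 and 4. The next was at 9.28, 9.01, 9.29 and 9.12, with replicates 1 and 3 level and replicate 2 lowest. The fourth was at 9.01, 9.21, 9.06 and 8.99, with replicate 2 highest, and the fifth was below background as given above. Genes with several probe sets, 7 genes with 19 probe sets here, may have near-identical copies elsewhere in the genome, so signal from the gene and from a copy cannot be told apart and their order over the arrays is uncertain.

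The U1 and U2 genes leaned the same way with smaller shifts. Their 6 probe sets had a median shift of -0.15 on replicate 1, with 5 of the 6 lower, and of 0.09 on replicate 3, with 6 of the 6 higher. Snrpa, the gene of protein A of the U1 snRNP, which binds a stem-loop of U1 RNA, read 10.95 on replicate 1 and 11.22, 11.14 and 11.14 on the others. Snrpa1 and Snrpb2 encode proteins A′ and B″ of the U2 snRNP, which bind U2 RNA together. Snrpa1 was at 9.45, 9.55, 9.71 and 9.50, highest on replicate 3, and Snrpb2 at 11.51, 11.50, 11.64 and 11.71, higher on replicates 3 and 4.

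Snrpc, the gene of protein C of the U1 snRNP, which steadies the pairing of U1 with the 5′ splice site, has 3 probe sets that disagree. The first read 9.62, 9.78, 9.77 and 9.83, lowest on replicate 1. The second read 8.98, 8.84, 9.40 and 9.24 and had the largest SD of the Snrp members above background, 0.252. The dimmest was highest where the first was lowest, at 7.91, 7.74, 7.86 and 7.59. With opposite orders over the same RNA, the 3 probe sets do not report 1 common pattern for the gene.

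Other genes moved much more than Snrp on the same array. On replicate 1, 15 of 16 early B-cell genes above background were higher than on the other arrays on average (median shift 0.68), and 7 of 7 pre-B and immature B-cell genes were higher, with a median of 0.63. Of 9 erythroid genes, all above background, 9 were lower on replicate 1, with a median shift of -1.31. The erythroid transcription factors Gata1 and Klf1 were above the line on every array but read 8.15 and 7.66 on replicate 1, while on replicates 2 to 4 Gata1 lay between 9.17 and 9.84 and Klf1 between 8.88 and 9.14. The granulocyte and monocyte genes were lowest on replicate 2, with a median shift of -0.39. In contrast, 14 cell cycle genes had a median shift of 0.00 on replicate 1 and 7 housekeeping genes one of -0.03. The stem and progenitor list was at 0.09 there, and the immediate early and stress list at 0.03. In the T and NK list, the NK-cell genes Klrb1c and Ncr1 were higher on replicate 1, by shifts of 1.05 and 0.82. The T-cell genes Cd3e and Cd3g were lower there, with shifts of -0.28 and -0.30, and Cd4 and Cd8a by less, at -0.12 and -0.05. Cd3d and Zap70, not above background on all 4 arrays, had shifts of 0.35 and 0.45. Cd3d was under the line on every array and Zap70 on replicates 2 and 4, so these shifts say little. The median of the list's 6 genes above background was -0.08. The B-cell, erythroid and NK-cell genes thus differ on the same array as the Snrp genes, and their part in the Snrp shift was not tested. In a sorted population measured in bulk, fewer cells of a type and less RNA per cell cannot be told apart.

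**Figure D4:**
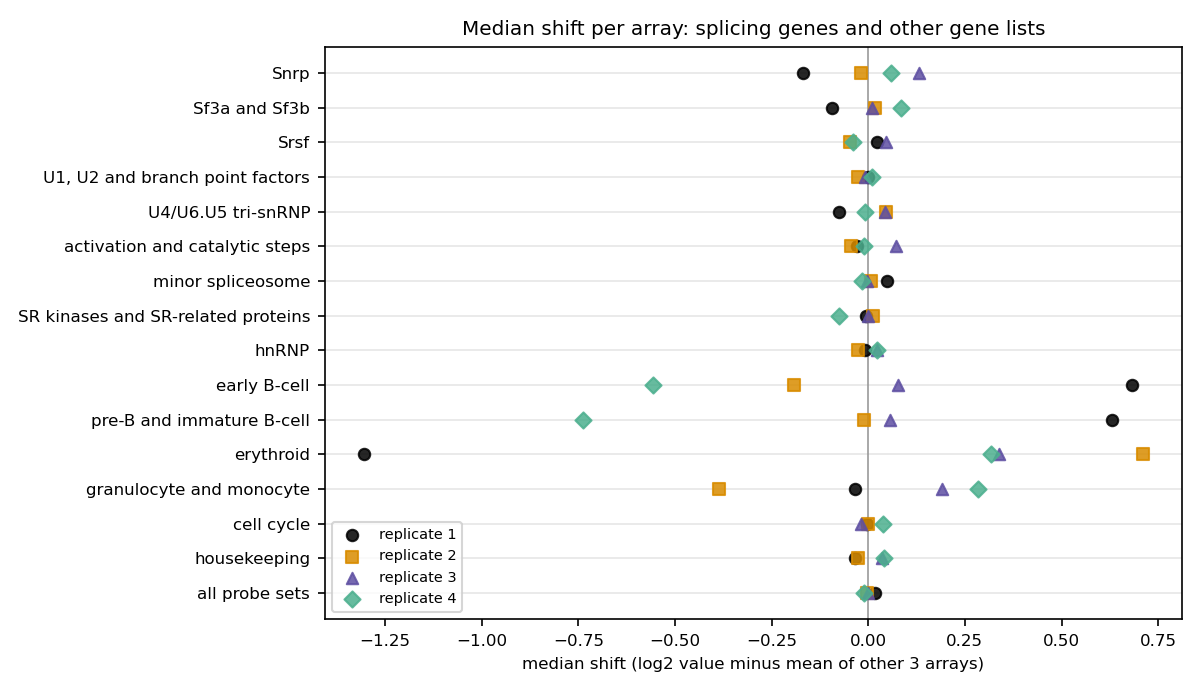
Median shift on each array (horizontal axis, log2 level less the average of the other 3 arrays) for the member families, the other splicing lists, marker lists of marrow cells and all probe sets above background (rows), with the symbol giving the replicate. The splicing lists lie within 0.2 of 0 on every array, while the early B-cell and erythroid medians reach 0.68 and -1.31 on replicate 1.

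The genes of the SF3A and SF3B complexes had a median shift of -0.09 on replicate 1 with 6 of 10 probe sets lower, near the 46.5% of all probe sets, and one of 0.08 on replicate 4 with 6 of 10 higher. The 3 genes of SF3A, which joins the SF3B complex to U2, were each lowest on replicate 1. Sf3a1 read 10.13, 10.35, 10.29 and 10.37 on replicates 1 to 4. Sf3a2 read 10.42, 10.51, 10.58 and 10.61. Sf3a3 read 10.96, 11.07, 11.01 and 11.13. In each of the 3 genes the gap from replicate 1 to the mean of the others was between 0.11 and 0.21.

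The genes of SF3B did not share a direction. Sf3b3, the gene of a large scaffold subunit, was lowest on replicate 1 at 11.50 and read 11.67, 11.69 and 11.77 on replicates 2 to 4. Sf3b1, whose protein clasps the branch point duplex and is recurrently mutated in human myelodysplastic syndromes, was instead highest on replicate 1, at 12.10 against 11.94, 12.00 and 11.91. Sf3b6, the gene of the small subunit p14 that lies at the branch adenosine, separated the arrays into pairs, with 9.36 and 9.33 on replicates 1 and 2 and 9.64 and 9.66 on replicates 3 and 4. Sf3b5, the gene of the smallest subunit, read 9.74, 9.84, 9.55 and 9.66, lower on replicates 3 and 4, the opposite of Sf3b6.

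Sf3b2 was the steadiest of all members. This gene, which encodes a large subunit bound near the branch point, read 9.59, 9.59, 9.57 and 9.53, an SD of 0.0278, and only 1.48% of the probe sets above background had a lower or equal SD. Sf3b4, the gene of a subunit with RNA recognition motifs that touches the transcript upstream of the branch point, had 2 probe sets that differed. The first read 8.90, 8.99, 9.02 and 8.93 with an SD of 0.0537. The second, dimmer, read 7.58, 7.14, 7.10 and 7.33, highest on replicate 1, with an SD of 0.219, and it was among the probe sets lost with the 99th percentile line.

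The SR protein genes showed no lean on replicate 1, where their 13 probe sets above background had a median shift of 0.02 and 5 were lower. On replicate 3, 10 of the 13 were higher, with a median of 0.05. Among them Srsf11, Srsf4, Srsf6 and Srsf1 were the steadiest, with SDs between 0.0324 and 0.0477. Srsf11 read 10.06, 10.14, 10.09 and 10.07 on replicates 1 to 4. Srsf4 read 10.81, 10.76, 10.85 and 10.77. For both genes all 4 arrays lay within 0.083 log2 units. Srsf6 lay between 11.10 and 11.17, and Srsf1, the founding SR protein (SF2/ASF), between 11.01 and 11.12.

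Srsf2, the gene of SC35, another splicing factor mutated in human myelodysplastic syndromes, was lowest on replicate 1 at 12.49 and read 12.70, 12.61 and 12.62 on replicates 2 to 4. Srsf9 stood out on replicate 3, where it read 10.25, while replicates 1, 2 and 4 were at 9.97, 10.01 and 9.98. Its gap of 0.26 from the mean of the others was past Dixon's criterion, with a ratio of 0.845. Srsf9 and Snrpe were the only 2 of the 41 members past it, and 5.35% of all probe sets above background were, so the share among the members is near that of the array as a whole.

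The genes of Srsf3, Srsf5 and Srsf10 each have several probe sets. Srsf3, which encodes the smallest SR protein, read 12.32, 12.16, 12.43 and 12.30 on its brightest probe set, lowest on replicate 2. Its second probe set had the widest spread of all members above background, at 8.93, 7.995, 8.50 and 8.48 (SD 0.383), highest on replicate 1 and lowest on replicate 2 by shifts of 0.61 and -0.64. On the dimmest it read 7.29, 7.21, 7.09 and 7.43, with replicate 4 highest. Replicate 2 was lowest on the brighter pair and replicate 3 on the dimmest, so the arrays have no common order here.

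Srsf5, an SR protein gene known for its early response to growth signals, was highest on replicate 1 on its brighter probe set, at 10.27, 10.13, 10.09 and 9.96, and highest on replicate 4 on the other, at 9.70, 9.66, 9.80 and 9.83. The 2 probe sets thus ran in opposite directions. Srsf10, whose protein turns into a general repressor of splicing when it loses its phosphates, read 12.00, 11.88, 12.05 and 11.91 on its first probe set. Its second read 8.81, 8.73, 8.77 and 8.64. On both, replicates 1 and 3 were higher than replicates 2 and 4, by at most 0.18 between the highest and the lowest array.

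The promoters of the member genes were read to show what they share beyond their names. RefSeq promoter windows of GRCm38.p6, from 250 bases before to 50 bases after the transcription start, were found for 25 of the 29 genes, 30 windows in all, and Sf3b4, Sf3b5, Snrpb and Snrpd1 had none. The 7 bases CCGGAAG, the core of the sites bound by ETS family factors, were present on either strand in 13 of the 25 genes. By windows this was 53.3% of the members' 30, against 16.4% of the 12804 windows of genes above background and 8.86% of all 32851 windows. The genes holding it were 6 of 7 of the Sf3a and Sf3b genes (Sf3a1, Sf3a2, Sf3a3, Sf3b2, Sf3b3 and Sf3b6), 4 of 8 of the Snrp genes (Snrpb2, Snrpc, Snrpe and Snrpg) and 3 of 10 of the Srsf genes (Srsf4, Srsf5 and Srsf11). The letters were chosen after the promoters had been looked at, and a match is a description of the sequence and not a bound site.

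The following 6 stretches of 100 bases are shown since they carry the shared letters in promoter windows of genes described above, the 4 Snrp genes among them. They are written 5′ to 3′ on the gene's strand, with CCGGAAG or its reverse complement in capitals. They lie in GRCm38.p6 at chr2:143062999-143063098 on the plus strand for Snrpb2, chr17:27840017-27840116 on the plus strand for Snrpc, chr1:133610251-133610350 on the minus strand for Snrpe, chr6:86371375-86371474 on the plus strand for Snrpg, chr12:4817503-4817602 on the plus strand for Sf3b6 and chr12:80945389-80945488 on the plus strand for Srsf5.
Snrpb2: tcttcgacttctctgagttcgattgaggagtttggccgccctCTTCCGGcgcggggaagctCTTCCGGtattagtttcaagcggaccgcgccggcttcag
Snrpc: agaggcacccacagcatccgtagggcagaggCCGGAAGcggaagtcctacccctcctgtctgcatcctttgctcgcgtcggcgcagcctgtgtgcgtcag
Snrpe: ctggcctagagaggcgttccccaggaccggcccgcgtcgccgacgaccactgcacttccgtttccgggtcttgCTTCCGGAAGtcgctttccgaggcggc
Snrpg: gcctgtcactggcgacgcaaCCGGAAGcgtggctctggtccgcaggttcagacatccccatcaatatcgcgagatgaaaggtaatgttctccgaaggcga
Sf3b6: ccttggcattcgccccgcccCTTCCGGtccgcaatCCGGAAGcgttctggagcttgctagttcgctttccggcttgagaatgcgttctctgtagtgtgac
Srsf5: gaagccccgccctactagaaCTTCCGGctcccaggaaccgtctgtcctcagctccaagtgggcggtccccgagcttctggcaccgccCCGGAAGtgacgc

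Snrpb2 holds the letters at 28 and 9 bases before the start, both on the opposite strand, and Snrpc at 39 bases before it. In Snrpe they begin 4 bases after the start as a run of both orientations that overlap, CTTCCGGAAG. Snrpg has them farther away, at 145 bases before the start. Sf3b6 and Srsf5 hold them once in each orientation, at 85 and 70 bases and at 90 and 23 bases before the start. The genes that leaned most on replicate 1, Snrpe and Snrpg, and genes with another order over the arrays, Sf3b6 and Srsf5, thus share these letters.

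The members' windows were also rich in CpG, with a median of 24 CpG per window (range 7 to 49), against 20 in windows of genes above background and 7 in all windows. Of other promoter letters searched on both strands, the GC box GGGCGG was in 70% of the members' windows, against 60.5% for genes above background and 35.7% for all. The CCAAT box (CCAAT) was in 30% of them, against 37.0% and 37.4%, and the TATA box (TATAAA) in 13.3%, against 7.32% and 13.6%. The E-box CACGTG was in 6.67%, against 9.78% and 7.15%. Of the 5, CCGGAAG differed most in share between the members and the genes above background. It was chosen after these promoters had been looked at, so this ranking is not a test.

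Other splicing genes set beside the members were above background as widely. A list of 100 further genes of the spliceosome, SR kinases and hnRNP proteins had 93 with a probe set. Of these, 93 were above background on all 4 arrays by the brightest probe set of each gene. The share over all probe sets, not limited to the brightest of a gene, was 60.0%. The list had a median SD of 0.0816, with 76 of 93 under the all-gene median. For the members these were 0.106 and 23 of 28, also with 1 probe set a gene. Over the list, the median shift on replicate 1 was -0.02, with 52 of 93 lower, and on replicate 3 it was 0.04, with 55 of 93 higher. Some lists within it moved in the direction of the Snrp genes. The 23 genes of the U4/U6.U5 tri-snRNP, the particle that joins U1 and U2 on the transcript, had a median shift of -0.08 on replicate 1, with 16 of 23 lower. The 20 genes of the activation and catalytic steps had a median of 0.07 on replicate 3, with 14 of 20 higher. These medians were smaller than those of the Snrp probe sets, and a difference between the lists was not tested.

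Within the list many genes were lowest on replicate 1, as most Snrp probe sets were lower there, and many others were lowest on another array. Among the Sm-like genes, Lsm2, Lsm3, Lsm4, Lsm7 and Lsm8 were lowest on replicate 1, while Lsm5 and Lsm6 were not. Lsm7, whose protein belongs to the Sm-like ring on U6 RNA, read 9.72 on replicate 1 and 10.36, 10.19 and 10.35 on replicates 2 to 4, the largest SD of the list at 0.30. Prpf31, a tri-snRNP gene, was also lowest on replicate 1, at 10.21 against 10.49, 10.45 and 10.45. Lsm7 and Prpf31 were highest on replicate 2, unlike the Snrp median, which was highest on replicate 3. Phf5a, a further subunit of SF3B, read 12.10, 12.13, 12.50 and 12.40 on replicates 1 to 4. U2af1, whose protein reads the 3′ splice site, was at 9.26, 9.38, 9.67 and 9.53. Both were lowest on replicate 1, and both were higher on replicates 3 and 4, as Sf3b6 was.

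Clk4 and Tra2a, of the list of SR kinases and SR-related proteins, ran the other way. Clk4, a kinase that phosphorylates SR proteins, was higher on replicates 1 and 2, at 10.67 and 10.58, than on replicates 3 and 4, at 10.24 and 10.32. Tra2a, an SR-related splicing activator, read 10.69 on replicate 1 and 10.45, 10.40 and 10.26 on the others, highest on replicate 1. The 12 SR kinase and SR-related genes had a median SD of 0.0974, the highest of the other splicing lists, and a median shift of -0.01 on replicate 1, so this pair did not stand for the list.

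Among the remaining lists, Prpf19, a ubiquitin ligase of the activation step, read 10.79, 10.89, 11.14 and 10.80, highest on replicate 3, and its partner Bcas2 read 8.78, 8.75, 8.90 and 9.05, highest on replicate 4. Snrnp35 and Pdcd7, which encode proteins of the minor spliceosome, were lowest on replicate 4, at 7.02, 6.96, 7.01 and 6.62 for Snrnp35 and at 7.90, 7.68, 7.78 and 7.62 for Pdcd7. Of the hnRNP genes, whose proteins coat new transcripts, Hnrnph2 read 9.31, 8.998, 9.45 and 9.27, lowest on replicate 2. Hnrnpab read 12.42, 12.43, 12.72 and 12.66, higher on replicates 3 and 4. No single order over the arrays was common to these lists.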

How the data were processed

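RNA of 4 preparations of wild-type pro-B cells was hybridised to Mouse Gene 1.0 ST arrays. The deposited values are log2 intensities per probe set, which the authors background-corrected and normalized by RMA; the sources used here do not give which arrays were normalized together, nor the threshold of a filter on low expression. RMA sets the arrays to a common distribution, so a change shared by most genes would not be seen. All columns were matched to a sample by name. Probe sets were named from the platform annotation, and 29 of 29 member genes matched RefSeq by gene ID. No levels of different probe sets were compared, apart from the background line and the choice of the brightest probe set of a gene in the lists.

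A probe set was above background if over the 95th percentile of the silent receptor probe sets on all 4 arrays, which 45 of the 1246 silent probe sets were themselves. SDs, shifts and Dixon ratios (95% critical value for 4) were computed on the deposited values with Python 3.11.15, numpy 2.4.6 and pandas 2.3.3. The one-sided test against the line used limma 3.58.1 in R 4.3.3, with an adjusted p under 0.05, and was tested on simulated data. Values on every array were to be given for the 4 members of each family with the largest SD and the 2 with the smallest. They were also to be given for members not above background or past Dixon's criterion, and for all probe sets of genes with several. The 2 genes of largest SD in each other splicing list were to be included too. The remaining members, and Gata1, Klf1, Klrb1c, Ncr1, Cd3e, Cd3g, Cd4, Cd8a, Cd3d and Zap70, were added after their values were seen. Alternatives were other lines, limma, quantile normalization, cyclic loess, median centring, 1 probe set a gene and leaving out each replicate. The members and lists were chosen with earlier results of these data known. Promoter letters were counted on both strands of RefSeq windows.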

Additional observations from a re-analysis of the deposited data

Results flagged for a closer look

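In 2 members 1 array lay far from the other 3, past Dixon's 95% criterion for 4 values. Snrpe, the Sm protein E gene, read 10.6138 on replicate 1, with a mean of 10.91 on the other arrays. Srsf9, an SR protein gene, read 10.2467 on replicate 3, with a mean of 9.99 on the others. Chance gives about 1 such case in 20 groups, or 2.05 among 41 members, and 2 is close to that.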

How the results depend on the processing

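By the limits set, none of 83 alternatives changed a result, but these limits were wide. A count could change by up to 1.5 times, and 39 of 41 member probe sets could not rise that far. The Snrp count on replicate 3 fell from 15 to 10 without replicate 1, just at the limit. The members' median shift could move by almost 0.110, their median SD over arrays, which is larger than any of these shifts. Such a shift could thus vanish or change sign within the limit. For the median SD the limit was the spread of the SDs between member probe sets. The members above background numbered 37 to 40, and the other splicing genes 92 to 93 of 93. The members' median shift on replicate 1 ran between -0.13 and -0.06 and on replicate 3 between 0.05 and 0.08, while on replicate 2 (-0.04 to 0.02) and replicate 4 (-0.03 to 0.05) it changed sign. The median SD ran between 0.0890, without replicate 1, and 0.122. The 3 Snrp results were added after seeing the data. The Snrp median shift on replicate 1 lay between -0.20 with median centring and -0.09 without replicate 3, and the count higher on replicate 3 between 10 without replicate 1 and 16 with median centring or without replicate 2. No paired analysis was possible because there was only 1 group. With 4 arrays, shifts of the size of the SD could not be told from the spread, and no depth is known for array values beyond the signal over the background line.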
